A study of Mus musculus with 72 samples.

Results

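H3K27me3, the trimethylation of lysine 27 on histone H3, was mapped by ChIP-seq in mouse embryonic fibroblasts (MEFs), connective tissue cells grown from embryos. WT cells carried intact genes for the nucleosome-binding proteins HMGN1 and HMGN2 (Hmgn1+/+n2+/+), and DKO cells lacked both (Hmgn1-/- n2-/-); all were of the C57BL/6 strain. The peak lists of the 4 H3K27me3 libraries, 2 biological replicates per genotype, were taken whole, and they hold 1271 of the 1156918 peaks in the 64 lists of the study. The study asked how the loss of HMGN alters the modifications of H3K27. Each list gives the position of every narrow peak that MACS2 called against input DNA on the mm9 genome, with the fold enrichment, the ratio of stacked reads to local background at the summit, and −log10 q. A place without a peak has no value, so the lists do not measure the level of the mark between peaks. Whether the replicates came from separate embryos is not given in the sources used here, and p-values then measure only the spread between these libraries.

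H3K27me3 is written by Polycomb repressive complex 2, whose catalytic subunit is EZH2 or EZH1, and is read by the CBX subunits of Polycomb repressive complex 1. The mark is known for covering CpG-rich promoters of developmental regulators that a cell does not use. In fibroblasts these include homeobox genes of other lineages and of other positions along the body. Acetylation of the same lysine (H3K27ac), placed by p300 and CBP, marks active promoters and enhancers, and a given H3 tail cannot carry both groups on that residue.

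The 100 bases around the summit are shown for 6 of the 8 H3K27me3 sites called in all 4 libraries, because sites called in every library have the most support. The 100 bases at the other two, Foxe1 and Grin1, touch untranslated regions and are not shown. The annotation beside each name is that of the 100 bases, not of the whole site, which at Lhx5 also reaches a coding exon. They come from the mm9 reference, plus strand, with CpG dinucleotides in capitals.
Kcnh3, chr15:99054756-99054855, upstream of the gene: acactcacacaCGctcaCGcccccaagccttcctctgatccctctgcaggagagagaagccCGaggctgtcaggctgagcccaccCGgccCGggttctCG
Kcng3, chr17:84030367-84030466, coding exon: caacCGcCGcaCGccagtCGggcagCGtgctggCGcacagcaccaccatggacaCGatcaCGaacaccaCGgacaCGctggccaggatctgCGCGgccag
Lhx5, chr5:120889829-120889928, intron: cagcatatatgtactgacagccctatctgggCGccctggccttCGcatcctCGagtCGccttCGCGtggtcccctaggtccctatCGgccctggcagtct
Unc45b, chr11:82744307-82744406, intron: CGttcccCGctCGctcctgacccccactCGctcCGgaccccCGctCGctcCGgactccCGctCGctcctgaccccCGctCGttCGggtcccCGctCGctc
Onecut3, chr10:79958897-79958996, coding exon: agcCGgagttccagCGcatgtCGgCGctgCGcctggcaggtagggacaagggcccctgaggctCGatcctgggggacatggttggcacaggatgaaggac
Hoxd11, chr2:74517818-74517917, exon: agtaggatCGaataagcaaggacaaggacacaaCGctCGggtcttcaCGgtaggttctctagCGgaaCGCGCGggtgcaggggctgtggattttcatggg

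The stretches hold 6 CpGs at Kcnh3 and Onecut3, 7 at Lhx5, 8 at Hoxd11, 12 at Kcng3 and 15 at Unc45b. The Unc45b stretch is a repeat, in which the word ccccgctcg occurs 4 times, while no 9-base word occurs more than 1 time in the other 5. Around all 1271 summits the mean was 4.79 CpGs per 100 bases, and 45.6% of the windows held at least 5. The same windows at 324192 H3K27ac summits, in and outside promoters, had a mean of 2.17 and 13.7%, and windows tiling the genome 0.834 and 1.71%. In 500-bp windows the median CpG observed-to-expected ratio of a library was 0.571 to 0.605 for H3K27me3 and 0.228 to 0.233 for H3K27ac. For the H3K27ac peaks at promoters alone it was higher than for H3K27me3, 0.660 to 0.675. The median GC content of 500-bp windows was 57.6% and 58.2% in the WT libraries and 57.6% and 58.6% in the DKO libraries. The genotypes overlapped in this measure. It was 57.6% around the starts of protein-coding transcripts and 41.6% in the genome.

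The WT libraries had 553 and 388 peaks and the DKO libraries 213 and 117. Both DKO libraries lay below both WT libraries, and limma over 16 antibodies gave a difference in log2 number of −1.55 ± 0.41 (standard error) with an adjusted p = 0.0438. Peak numbers were called lower in DKO cells for 9 of the 16 antibodies (56.2%), so a fall in peak number was not particular to H3K27me3. The labels list 1 input library of MEFs per genotype, so an effect of the input cannot be told apart from that of genotype. MEF antibodies may share these inputs, and their rows are then not independent. The call was lost without WT replicate 1 (−1.30, adjusted p = 0.173 from limma), without WT replicate 2 (−1.81, 0.0995) and without DKO replicate 2 (−1.12, 0.0872). The lowest background at a summit, in reads stacked per position, was 1.04 in DKO replicate 2 and at least 1.14 in the other 3 libraries. It does not measure depth alone, and read totals are not given. Rescaling all summits to the lowest of these backgrounds left 536, 379, 210 and 117 peaks, which differed by −1.52 in log2 number (limma, adjusted p = 0.0432). This rescaling is not a correction for depth. In chromatin of many cells the share of cells with the mark and its amount per cell cannot be told apart, and a peak number measures neither.

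Called peaks had passed the same threshold on q, which bounds their height from below. The bound was not equal in p, as the lowest −log10 p was 6.26 and 6.05 in WT and 6.36 and 6.71 in DKO libraries. The median fold enrichment was 5.81 and 5.89 in WT and 5.87 and 6.07 in DKO libraries, with a median of 14 stacked reads at the summit in each library. A promoter is taken here as the 1000 bp on either side of a protein-coding transcript's start. It held 42.9% and 46.1% of the WT peaks and 42.3% and 40.2% of the DKO peaks. The genotypes did not overlap, but 42.9% and 42.3% lay close together, and the difference was not tested. Peaks were narrow, with median widths between 171 and 200 bp, and the solved summits, all but 1, were stacks of at most 25 reads.

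Merging peaks that overlapped by 1 bp or more gave 1068 sites. Of these, 917 were called in 1 library, 117 in 2, 26 in 3 and 8 in all 4. Sites in 2 or more libraries numbered 151, of which 83 lay at promoters, against 367 of the 917 sites in 1 library. Their median width was 342 bp against 175 bp. A merged site is wider by construction and reaches a promoter more easily, and the difference was not tested. Such sites held 23.1% of the peaks of WT replicate 1, 29.1% of WT replicate 2, 33.3% of DKO replicate 1 and 35.9% of DKO replicate 2.

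**Figure D1:**
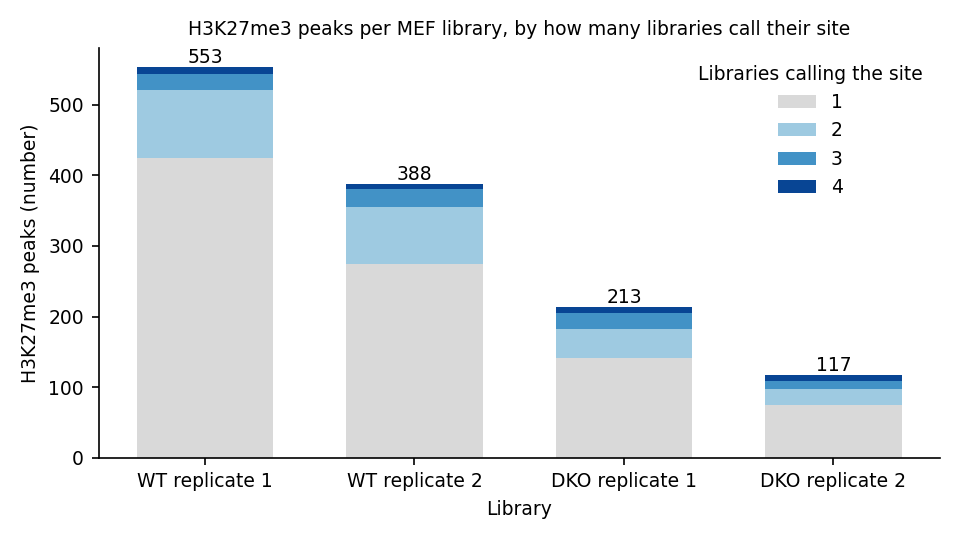
Bars give the number of H3K27me3 peaks in each of the 4 MEF libraries, and shades show how many libraries call the site a peak belongs to. Sites called in 1 library hold 425, 275, 142 and 75 of the peaks, from WT replicate 1 to DKO replicate 2.

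The strongest of the 8 sites called in all libraries lay upstream of Kcnh3, a voltage-gated potassium channel of brain neurons, at chr15:99054687-99055033. Its fold enrichment was 9.80 and 10.5 in WT and 6.37 and 6.25 in DKO libraries. At Foxe1 (chr4:46356593-46357120), a forkhead factor of thyroid development, it was 7.49 and 7.24 against 6.89 and 7.29. Both WT values exceeded both DKO values at Kcnh3, while the values of the genotypes overlapped at Foxe1. Grin1 (chr2:25146579-25147142), the obligatory subunit of the NMDA receptor, had 7.52 and 8.94 against 5.17 and 6.48. The site named Grin1 here also lay in the body of Lrrc26, and a neighbouring site lay at the Lrrc26 promoter. Kcng3 (chr17:84030013-84030526), a modifying subunit of potassium channels, had 7.54 and 6.37 against 5.68 and 7.71, again with overlap.

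Lhx5, a LIM-homeobox gene of the forebrain, carried its site 7287 bp from the start at chr5:120889182-120889998, with folds of 5.73 and 7.40 in WT and 5.17 and 6.88 in DKO libraries. Unc45b (chr11:82743877-82744449), a myosin chaperone of striated muscle, had 8.26 and 4.77 against 6.59 and 5.83 in an intron. Onecut3 (chr10:79958789-79959118), a cut-homeobox gene of neurons and endoderm, had 6.01 and 6.36 against 5.62 and 4.52. Hoxd11 (chr2:74517724-74518081), a patterning gene of limb and trunk, was the exception in direction among the 8, with 4.65 and 4.30 in WT and 5.12 and 7.18 in DKO libraries. The genotypes did not overlap at 4 of the 8 sites (50.0%), lower in DKO cells at Kcnh3, Grin1 and Onecut3 and higher at Hoxd11. An exact permutation test of 2 against 2 cannot give a p below 0.333 for any of them, so these differences are given as values.

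**Figure D2:**
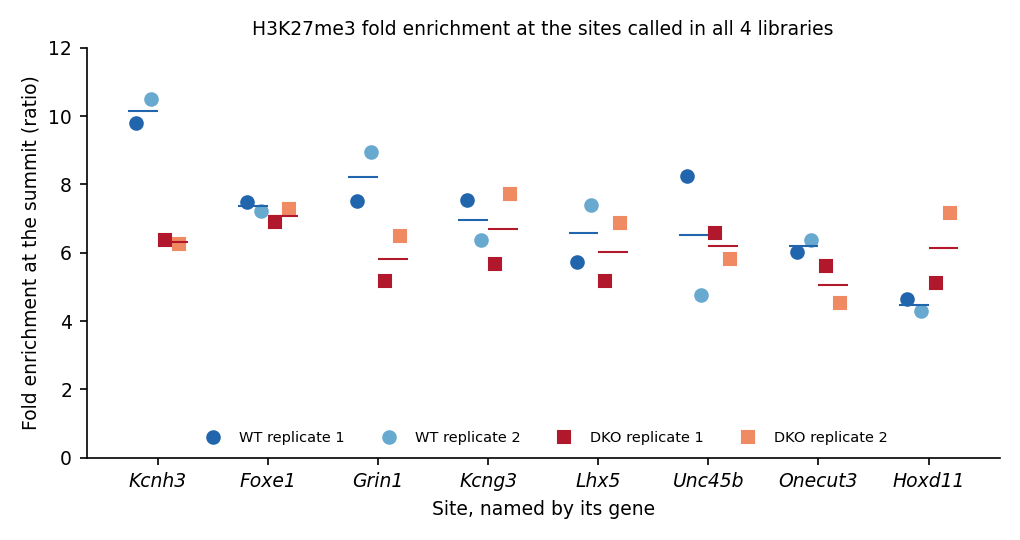
Points give the fold enrichment (ratio, linear axis from 0) of the H3K27me3 peak in each library at the 8 sites called in all 4, and lines give the mean of each genotype (n = 2). The WT values lie above the DKO values at Kcnh3, Grin1 and Onecut3, and below them at Hoxd11.

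Over the 87 sites called in both genotypes, the mean fold of the calling DKO libraries exceeded that of the calling WT libraries at 53 and was lower at 34. The median log2 difference was 0.10, with a range from −0.82 to 0.71. A site enters this count only where it passed the caller in both genotypes, so the values describe called peaks and not the mark at all WT sites.

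Of the 26 sites in 3 libraries, the strongest lay at Gbx1, a homeobox gene of the spinal cord, with folds of 6.76 in WT replicate 2 and 8.21 and 8.24 in the DKO libraries. Cbfa2t3, a corepressor, had 5.82 and 7.94 in WT and 6.67 in DKO replicate 1. Tlx2, a homeobox gene of enteric neurons, had 5.82 and 7.36 in WT and 8.24 in DKO replicate 1. The DKO library that lacked the peak was replicate 2, the shortest list, at Cbfa2t3 and Tlx2. Lhx1, which acts in head and kidney formation, had 8.28, 6.19 and 5.03 in the same 3 libraries, and Pax2, the paired-box gene of kidney, eye and ear, 6.07, 8.04 and 6.38. Egr4, a zinc-finger factor, had 5.53 in WT replicate 1 and 8.08 and 6.48 in DKO libraries. The other sites in this group with a strong mean −log10 q lay at Gm6320, Agap2, Notum, an enzyme that inactivates Wnt proteins, Tlx3, Lbx1, Espn, an actin-bundling protein of hair cells, Pax3 and Dnajc22. Of the 26 sites, 15 joined the WT pair with DKO replicate 1, and 4 joined it with DKO replicate 2.

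A set of 59 sites (5.52% of 1068) was called in the WT pair of libraries alone, and 5 (0.468%) in the DKO pair alone. The 6 strongest of the 59 lay at Foxe1, Gm9924, Duox2, an oxidase of thyroid and airway, Adcy5, an adenylyl cyclase, Islr2, and Lmx1b, a LIM-homeobox gene of limb and midbrain. The Foxe1 site, 151 bp from the start, had folds of 9.60 and 7.15 in WT cells. The folds were 7.56 and 5.72 at Duox2, 9.01 and 5.46 at Islr2 and 8.22 and 6.26 at Lmx1b. The 5 DKO sites lay at Foxl2, the forkhead factor of the ovary (8.65 and 6.48), Tlx3 (7.12 and 6.48), Dnajc22 (7.11 and 6.28), Nr5a1, the nuclear receptor SF-1 of gonad and adrenal gland (6.19 and 6.62), and Igdcc3 (5.17 and 5.83).

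The longer WT lists enter these counts. With the 117 strongest peaks of each library, 8 sites belonged to the WT pair alone and 8 to the DKO pair alone. In these equal lists the share of peaks that overlapped a peak of the other replicate was 10.3% for WT and 11.1% for DKO, against 6.84% to 10.3% between a WT and a DKO library. Foxe1, Tlx3, Dnajc22 and Foxl2 also show that a site of 1 genotype can lie beside sites of both: Foxe1 carries a site in all 4 libraries, and Foxl2 had promoter peaks in all 4 (1, 2, 2 and 2). Strong sites with 1 library of each genotype lay at Pou3f1, a POU-homeobox gene of neurons and Schwann cells (8.89 in WT replicate 1, 9.59 in DKO replicate 2), C1ql1, Sox21, Tbx1, Tchh and Nptx1.

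Peaks were then grouped by distance. Chains of peaks from the 4 libraries with gaps of at most 10000 bp gave 538 regions, of which 293 held 1 peak. The other 245 held 978 of the 1271 peaks (76.9%), and 225 of them held 2 or more separate sites. Of the 64 regions with 5 or more peaks, 58 had peaks of both genotypes and 56 had a protein-coding start within 1000 bp, against 143 and 321 of all 538 regions. A region with more peaks holds both genotypes more often by construction. The median region with 2 or more sites spanned 2494 bp, of which peaks covered 26.3%.

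Onecut3, Lhx1, Skor1 and Uncx had the most peaks, 14 each. The numbers in WT replicates 1 and 2 and DKO replicates 1 and 2 were 6, 3, 4 and 1 at Onecut3, and 7, 4, 2 and 1 at Lhx1. At Skor1, a corepressor of the nervous system, they were 8, 3, 3 and 0, and at Uncx, a homeobox gene of the axial skeleton, 9, 4, 1 and 0. WT replicate 1, the longest list, had the most peaks in these 4 regions, and DKO replicate 2 the fewest. Lbx1, a homeobox gene of migrating muscle precursors, had 5, 1, 5 and 2 over 21025 bp, the longest region of all. Lhx5 had 6, 3, 2 and 2, the neighbours Hmx2 and Hmx3, homeobox genes of the inner ear, 3, 3, 4 and 3, and the stretch of Hoxd10 and Hoxd11 4, 3, 4 and 1. DKO replicate 1 thus had as many peaks as WT replicate 1 at Lbx1 and Hoxd10, and more at Hmx2.

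**Figure D3:**
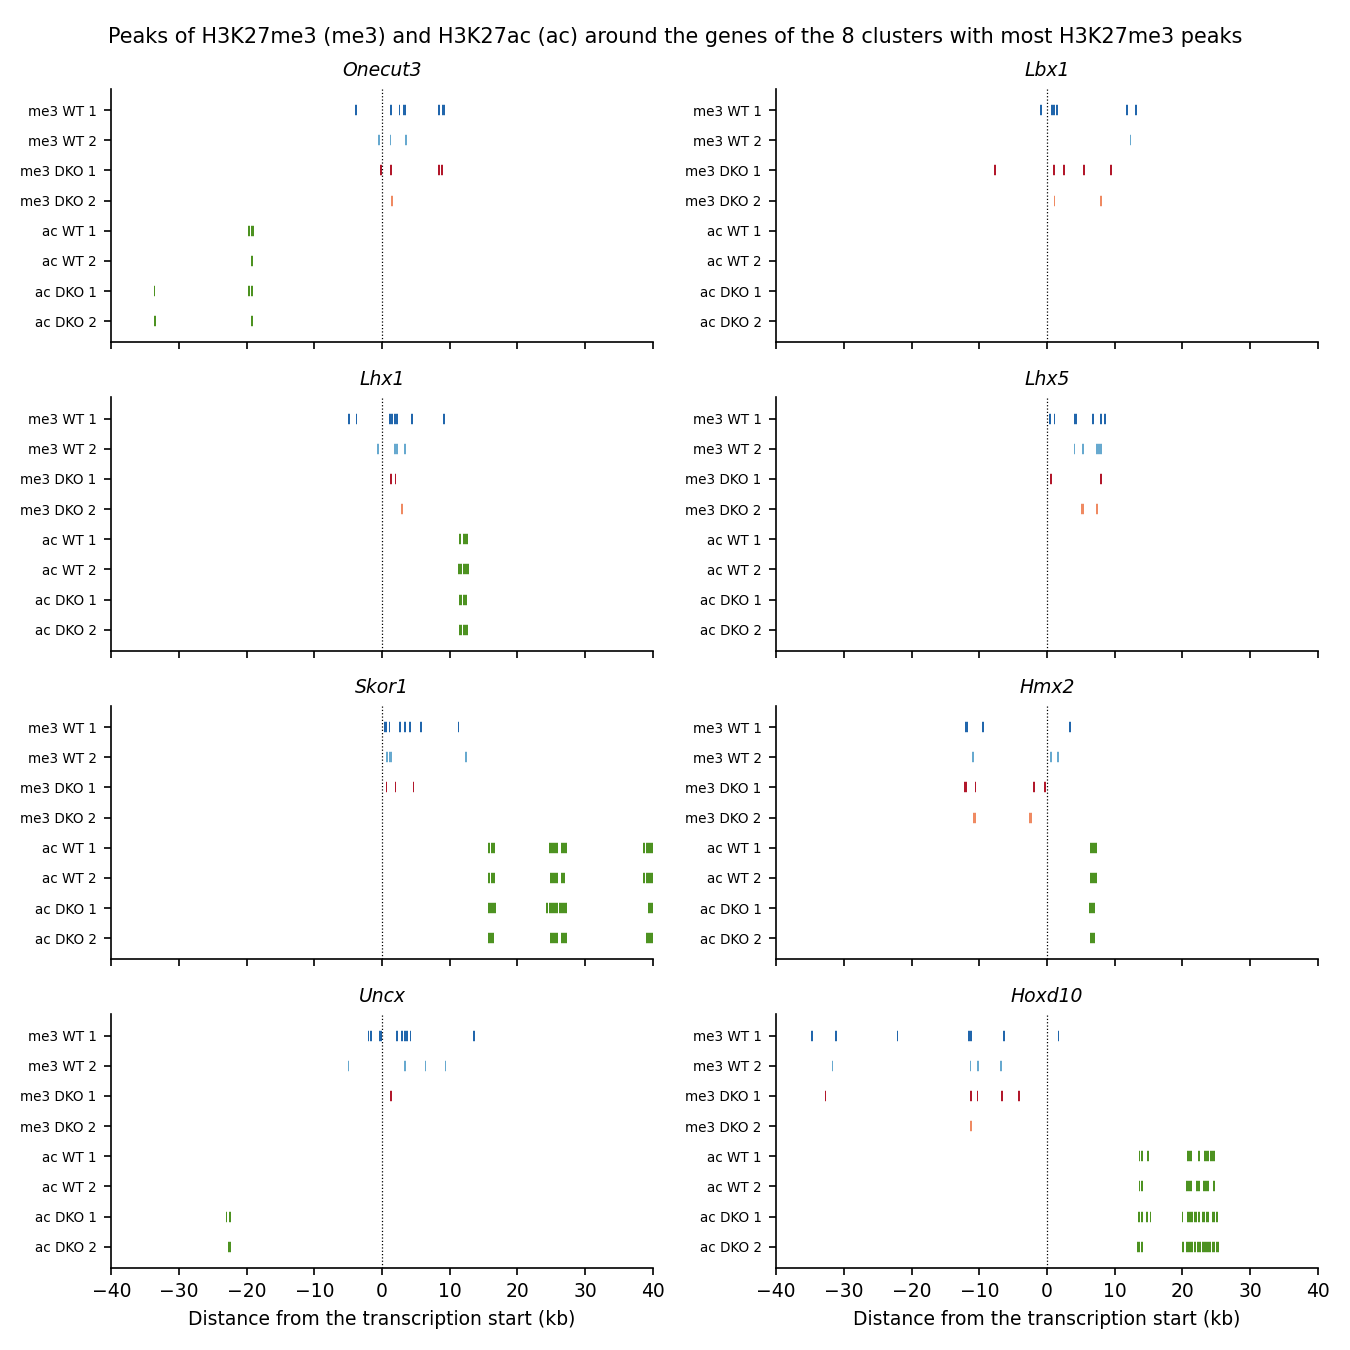
Each panel shows the peaks of the 4 H3K27me3 libraries (me3, WT blue and DKO red) and the 4 H3K27ac libraries (ac, green) by distance in kb from the most upstream protein-coding start of the named gene, with short peaks widened to stay visible. H3K27me3 peaks spread over the gene and its start, and 0 H3K27ac peaks lie within 40 kb of the starts of Lbx1 and Lhx5. The other panels hold H3K27ac peaks in some library, the nearest 6273 bp from the start of Hmx2.

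Of the DKO peaks, 30.5% and 31.6% overlapped a WT peak, and 72.3% and 72.6% had one within 10000 bp. The same distance gave 49.5% and 45.4% of the WT peaks with a DKO peak, a share that the shorter DKO lists lower. Counted by region, it gave 68.9% and 69.8% of the DKO regions and 36.2% and 39.6% of the WT regions. The number of regions per library was 354 and 278 for WT and 161 and 106 for DKO. In limma over 16 antibodies, 9 of which were called lower (56.2%), the difference in log2 number was −1.26 ± 0.28 (standard error), with an adjusted p = 0.0293. The call was lost without WT replicate 1 (−1.09, adjusted p = 0.13 from limma), without WT replicate 2 (−1.44, 0.0789) and without DKO replicate 2 (−0.96, 0.0574). The share of a library's peaks with another of its own within 10000 bp was 55.9% and 46.6% in WT and 42.7% and 17.9% in DKO libraries. It was lower in the shorter lists. Regions of the WT pair alone numbered 73 and included Gm9924 with 8 peaks and Tlx1, Fev and Nkx2-3 with 7 each. The 5 regions of the DKO pair alone lay at 4930447C04Rik, Trank1, Arhgef1, Gsx2 and Tbx20, with 1 peak per library.

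Of the 22219 protein-coding genes, 329 had an H3K27me3 promoter peak in some library (1.48%), and 105 in at least 2 (0.473%). Genes for developmental transcription factors, in 3 lists with 237 annotated members, made up 21.4% and 21.8% of the marked genes in WT libraries and 32.9% and 23.4% in DKO libraries, against 1.07% of all genes. By site, 48 of the 151 recurrent sites (31.8%) and 281 of the 917 sites in 1 library (30.6%) were named by such a gene. The sites that did not recur thus fell on this class of gene about as often as those that did.

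In a list of homeobox and paired-box genes outside the Hox clusters, which does not hold all such genes (Lbx1 and Onecut3 are not in it), 45 of 104 had a promoter peak (43.3%), and 13 had one in 2 or more libraries. The members per library were 25 and 19 for WT and 17 and 5 for DKO. Pax2 had 4, 2, 1 and 1 promoter peaks in WT replicates 1 and 2 and DKO replicates 1 and 2. Lhx1 had 1, 4, 1 and 1, Hmx3 1, 1, 2 and 1, and Nkx6-2, which acts in the ventral neural tube, 2, 2, 0 and 1. Pax2, Lhx1 and Hmx3 were the 3 members with a promoter peak in every library. Evx2 had 1, 1, 1 and 0, and Lhx5, Pitx1, Hmx2 and Uncx had peaks in 1 library of each genotype. In WT cells alone lay those of Lmx1b (3 and 2), Nkx2-3 (1 and 3), Pou3f3 (1 and 2) and Tlx2 (1 and 2). Otx2, the head gene, had 2 promoter peaks in DKO replicate 1 and 0 elsewhere.

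Of the 39 Hox genes, 5 had a promoter peak (12.8%), all of them posterior members of their clusters. Hoxa13 had 2, 1, 1 and 0 peaks, Hoxc12 0, 1, 1 and 0, and Hoxa11, Hoxc13 and Hoxd13 1 each in WT replicate 1. H3K27ac promoter peaks were present at 69.2% of the Hox genes. Of the 5 genes with H3K27me3, Hoxa11 alone also had H3K27ac, in both WT libraries. In the Hoxd cluster the H3K27ac peaks began 13225 bp from the start of Hoxd10, on the side away from Hoxd11.

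Of 94 other developmental transcription factor genes, 25 had a promoter peak (26.6%). Foxe1 had 2, 3, 1 and 1 peaks, Sox21, a factor of neural progenitors, 3, 2, 1 and 0, and Tbx1, the gene of the pharyngeal arches, 1, 1, 0 and 1. Foxa2 and Zic2 had 1 peak in each replicate 1, Prdm12, of pain-sensing neurons, 1 in each WT library, and Nr5a1 1 in each DKO library. Wt1, the Wilms tumour gene of kidney and mesothelium, had 2 promoter peaks in WT replicate 1 and 0 in the other libraries. Its H3K27ac promoter peaks had the opposite distribution, 0 in both WT and 1 in each DKO library, a pattern in which the H3K27me3 side rests on 1 library.

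Among 58 developmental signalling genes, 11 had a promoter peak. Wnt1, the ligand of the midbrain, had 3, 2, 1 and 1, Ihh, the hedgehog ligand of growing cartilage, 1, 2, 0 and 1, and Fgf9 1, 1, 0 and 1. Fgf4 had 1 peak in WT replicate 1 and 1 in DKO replicate 2, and Wnt4 and Wnt7b 1 in each WT library. An H3K27ac promoter peak was present at 15.5% of the list.

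Of 12 epithelial genes, 4 had an H3K27me3 promoter peak (33.3%) and 0 an H3K27ac peak. Cldn7, a tight-junction protein, had 1, 1, 2 and 1 peaks, Epcam, the epithelial adhesion molecule, 1, 0, 0 and 1, and Ovol1, a zinc-finger factor of epidermis, 1 in each WT library. Esrp1, the splicing regulator of epithelia, had 2 in WT replicate 1. Among neuronal genes Elavl3, Nefm and Slc17a7 had 1 peak each in a WT library (3 of 15), and among pluripotency genes Sall4 had 1 in DKO replicate 2 (1 of 10). The lists of 13 blood cell, 8 endothelial, 11 skeletal muscle and 7 cell cycle inhibitor genes had 0.

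The fibroblast and housekeeping lists had 0 genes with an H3K27me3 peak, which at 1.48% of all genes sets lists of this size little apart. All 20 fibroblast genes, such as Col1a1, Fn1 and Pdgfra, had an H3K27ac promoter peak in some library, 19 of them in all 4, with Lum short of a peak in WT replicate 2. The 15 housekeeping genes had H3K27ac in all 4 libraries. Of 31 genes of the Polycomb complexes, 30 had H3K27ac in each library, Ezh2, Eed and Suz12 among them; Cbx7 had neither mark. The demethylases and acetylation enzymes of H3K27 had H3K27ac at 7 of 7 genes. Over all genes, 52.8% had an H3K27ac promoter peak in some library and 47.9% in all 4. Of genes that mark other cell types, H3K27ac was found in some library at 2 of 13 blood cell, 1 of 8 endothelial, 2 of 15 neuronal, 0 of 12 epithelial and 0 of 11 skeletal muscle genes. These were Csf1r, Tubb3 and Elavl4 in all 4 libraries, Ikzf1 in DKO replicate 2 and Kdr in DKO replicate 1. Hmgn2 had H3K27ac promoter peaks in the WT pair alone, Hmgn1 in all 4, and neither gene had an H3K27me3 peak.

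**Figure D4:**
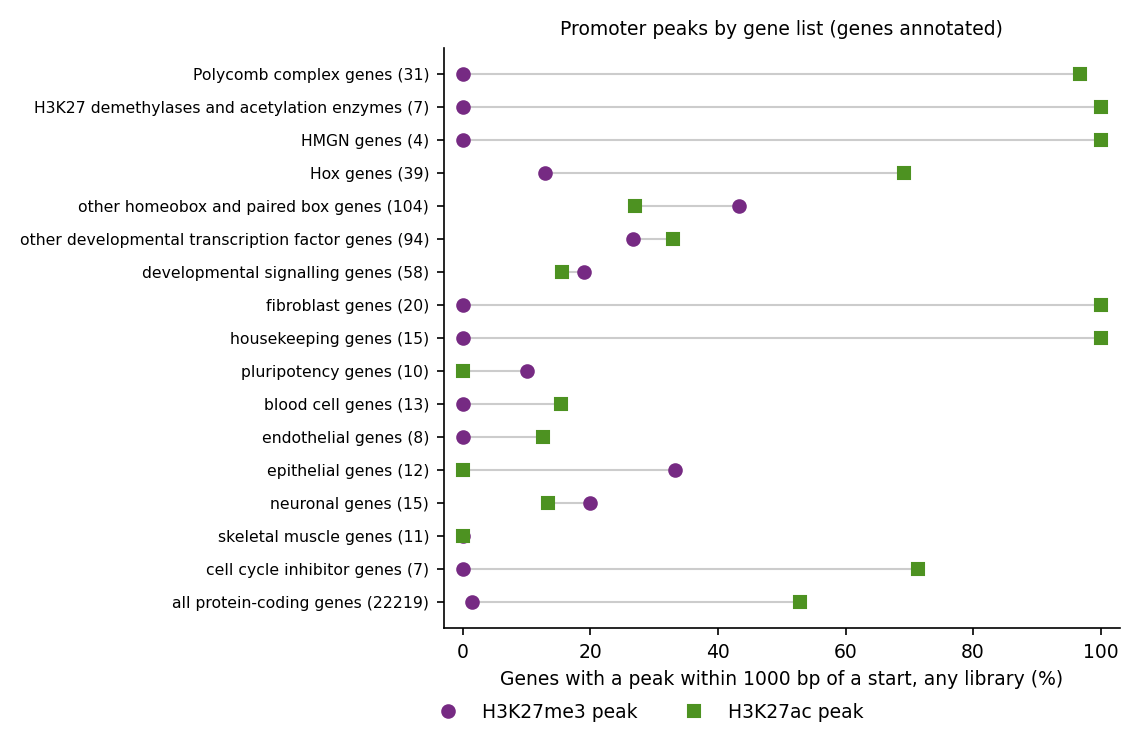
Circles give the percentage of each list's genes with an H3K27me3 peak, and squares that with an H3K27ac peak, within 1000 bp of a transcription start in any of the 4 MEF libraries of the mark. The number of annotated genes stands in parentheses. Homeobox and paired-box genes reach 43.3% for H3K27me3, while fibroblast and housekeeping genes stand at 0.

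H3K27me3 and H3K27ac peaks hardly met. Of the 553, 388, 213 and 117 H3K27me3 peaks, 1, 0, 1 and 0 overlapped an H3K27ac peak of any MEF library, 0.157% of all 1271 (exact 95% binomial interval 0.0191% to 0.567%, for counting error only). H3K27ac peaks covered 2.72% of the genome. Brd3 peaks, of a reader of acetylated histones, overlapped H3K27ac at 95.3% to 99.1%, p300 peaks at 78.8% to 80.0%, CEBPB peaks at 43.3% to 48.9% and histone H1 peaks at 0.635% to 1.42%. The median distance from an H3K27me3 peak to H3K27ac was 30531 and 34414 bp in WT and 29825 and 27810 bp in DKO libraries, and for H1 peaks it lay between 428751 and 512353 bp. The 10 kb on either side of all H3K27me3 sites made up 0.437% of the genome and held 0.188% to 0.214% of the H3K27ac peaks of a library, less than their share of the genome.

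**Figure D5:**
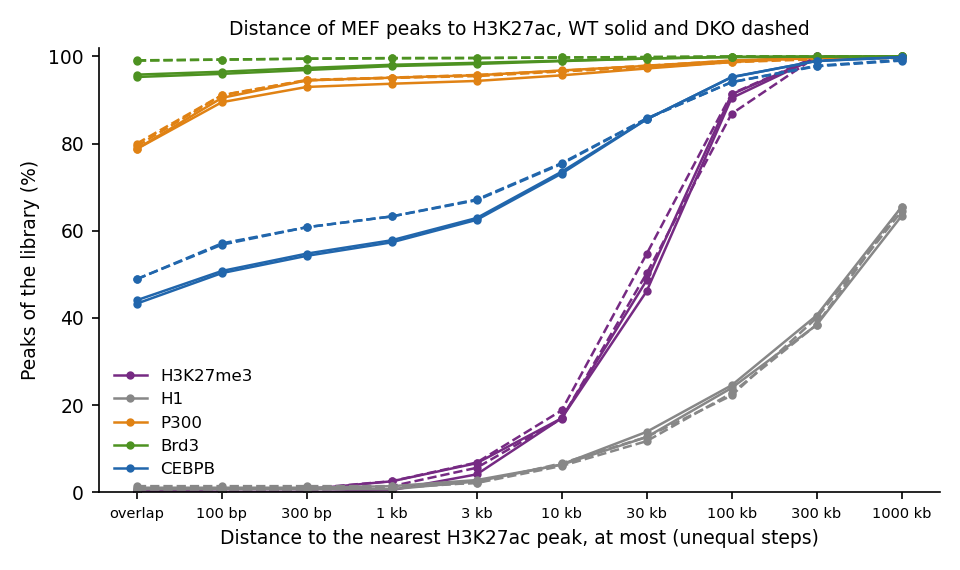
Lines give the percentage of the peaks of each MEF library that lie within a given distance of an H3K27ac peak of any MEF library, WT solid and DKO dashed, with unequal steps along the distance axis. Within 10 kb lie 16.9% to 18.8% of the H3K27me3 peaks and at least 73.1% of the p300, Brd3 and CEBPB peaks.

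The 2 sites with overlap lay at Bhlhe22 and Hoxa10. Bhlhe22, a helix-loop-helix gene of neurons, had H3K27me3 in WT replicate 1, and in the same library an overlapping H3K27ac peak of 4.58-fold enrichment; no other library had one that overlapped, though WT replicate 2 had one elsewhere in the promoter. At Hoxa10, a patterning gene of limb and uterus, the H3K27me3 peak was called in DKO replicate 1, and H3K27ac was 11.6 and 13.2-fold enriched in WT and 6.76 and 7.62-fold in DKO libraries. Neither site recurred. Of the 151 recurrent sites 0 overlapped H3K27ac, and 1 had it within 1000 bp.

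The number of peaks outside H3K27ac was 552 and 388 for WT and 212 and 117 for DKO. In limma over 5 MEF antibodies, of which 4 were called lower (80.0%), the log2 difference was −1.56 ± 0.34 (standard error), with an adjusted p = 0.00663. Only 2 of the 1271 peaks are left out here, so this fit repeats that of peak number, with 5 antibodies in place of 16. Its lower p is not separate support. The call was lost without WT replicate 1 (−1.30, adjusted p = 0.0837 from limma). Inside H3K27ac no change in log2 number could be fitted, since 2 libraries had 0 peaks. The log2 number outside minus that inside, each plus 1, fell by 1.55 in DKO cells (standard error 0.22, adjusted p = 0.0103 from limma, 3 of 5 antibodies lower, 60.0%), a value set by the peaks outside, with 0 or 1 inside. It missed the threshold without DKO replicate 1 (−1.47, adjusted p = 0.0858) and without DKO replicate 2 (−1.62, 0.0726), and with a q of at most 0.001 (−1.06, 0.147), all from limma.

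Of the 59 sites of both WT libraries alone, 0 overlapped a DKO H3K27ac peak and 0 had one within 1000 bp. Over all 1068 sites 0.187% overlapped H3K27ac of any library and 1.97% had it within 1000 bp, so a count of 0 does not set the 59 apart. The median distance was 35439 bp to WT and 35217 bp to DKO H3K27ac peaks. By gene, 216 had an H3K27me3 promoter peak in WT libraries alone. H3K27ac was called in the DKO pair alone at 1 of them (0.463%), Wt1, against 77 of all genes (0.347%). In the reverse direction H3K27ac was called in both WT libraries alone at 4 of the 216 (1.85%), which were Barx1, Bhlhe22, Hoxa11 and Osr2, against 170 of all genes (0.765%). Of the 50 genes with H3K27me3 in DKO libraries alone, Epas1 had H3K27ac in both WT libraries alone.

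Both marks were listed within 1000 bp of a start at 29 of the 329 genes (8.81% with H3K27ac, against 52.8% of all genes). Among the 105 genes with recurrent H3K27me3 these were Camta1, Pfdn4, Islr2, Lef1 and E130012A19Rik, of which Camta1 and Pfdn4 had H3K27ac in all 4 libraries. The promoters of the 329 genes had a median CpG observed-to-expected ratio of 0.831, against 0.660 for all protein-coding genes. It was 0.849 for the 11787 genes with a ratio over 0.6 and no H3K27me3, a set chosen by this ratio. Of that set, 84.3% had H3K27ac. Of the 329 genes, 293 also had a ratio over 0.6.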

How the data were processed

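ChIP-seq peak lists of MEFs were used as deposited. Per the labels and methods, the authors trimmed reads with cutadapt 1.16, mapped them to mm9 with BWA, marked duplicates, removed reads in blacklisted regions, and called peaks in each library against input with MACS2 2.1.1.20160309 (versions from the submitters' processing notes). The fold enrichment that the authors deposited is a ratio, and its −log10 p and q were deposited beside it; every q was at most 0.01. Stacked reads and background at each summit were solved from fold enrichment and −log10 p (tolerance 0.0005), which failed for 1 peak. The files hold no read totals.

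Log2 numbers were compared with limma 3.58.1 in R 4.3.3, 1 row per antibody, with Benjamini-Hochberg adjustment at 0.05. Intervals were handled with Python 3.11.15 and pandas 2.3.3, starts came from GENCODE vM1, sequence was read with pysam 0.24.0. Steps were tested on simulated data. Sites were named by the gene with a start within 1000 bp, else the gene body, else the nearest start. Named were the 20 strongest sites in 3 or 4 libraries, the 6 strongest of each pair pattern, the 8 clusters with most peaks, and list members with recurrent promoter peaks or else the 2 with most peaks; the Onecut3 and Hoxd11 sites, regions of 1 genotype, and genes with both marks were named after their values were seen. The members, lists and tests were chosen with earlier results of these data known. The common −log10 p was chosen after seeing the data. Alternatives were other thresholds, merging, gaps, overlap rules, a replicate block and left-out libraries. Some genes that the rule names are not reported here.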

Additional observations from a re-analysis of the deposited data

How the results depend on the processing

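The limma change in peak number kept its direction and its call in 12 of 15 alternatives, that in regions in 10 of 13 and that outside H3K27ac in 10 of 11; the exceptions all left out 1 library. Without 1 library the changes ranged from −1.99 to −1.12, from −1.57 to −0.96 and from −1.98 to −1.13, and that of outside minus inside from −1.79 to −1.30. With 1 library left in a genotype, it is assumed to vary like the other antibodies' libraries. Over all other settings adjusted p-values from limma lay between 0.0258 and 0.0491 for peaks and between 0.0161 and 0.0463 for regions. Outside minus inside was −1.06 with a q of at most 0.001, since DKO replicate 1 then had 0 peaks inside. With 117 top peaks in every library, recurrent sites fell from 151 to 46, WT-pair sites from 59 to 8, and DKO-pair sites were 8 in place of 5, and 0 peaks overlapped H3K27ac; by construction these lists are shorter. With H3K27ac within 1000 bp in place of overlap the share was 1.73%, and leaving out a library gave 0.0945% to 0.227%. Clusters numbered 223 to 248 in place of 245. Peaks at 1 common −log10 p gave a change of −1.52, and −1.44 when also rescaled. A replicate block gave −1.55 for peaks (adjusted p = 0.0258 from limma) and −1.26 for regions (0.0161) and changed no call; equal numbers correlated at 0.23 over 16 antibodies, and nothing says that they pair the libraries. Few stacked reads per summit, 2 libraries per genotype and lists without reads limit all values.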

Other observations

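H3K27me3 peaks were unevenly spread over the chromosomes. Chromosome X had 0 of the 1271 peaks in the 4 libraries, though it makes up 6.28% of the genome and had 2.28% of the H3K27ac peaks. Chromosomes 11 and 2 had the largest numbers, 145 and 135, or 11.4% and 10.6% of the peaks against 4.59% and 6.85% of the genome.

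Peaks of other antibodies and cell types were compared with the H3K27me3 sites by overlap of 1 bp. CTCF peaks of ESCs, which cover 0.954% of the genome, overlapped 88 of the 1068 sites (8.24%) and 22 of the 151 recurrent sites (14.6%), which are wider by construction. NANOG peaks of ESCs, over 1.06% of the genome, overlapped 59 sites (5.52%) and 8 recurrent sites (5.30%). OCT4 peaks of ESCs, over 0.489% of the genome, overlapped 38 sites (3.56%). Klf4 peaks, over 0.0852% of the genome, overlapped 6 (0.562%), and Sox2 peaks, over 0.252%, overlapped 5 (0.468%). Among the MEF antibodies Brd3, over 0.718% of the genome, overlapped 15 sites (1.40%), 3 of them recurrent. CEBPB, over 0.136%, overlapped 2 (0.187%), and p300, over 0.0857%, and H1, over 0.00433%, overlapped 1 each (0.0936%). Of the B cell factors, Ikaros, over 0.2% of the genome, overlapped 6 sites (0.562%) and Ets1, over 0.0537%, overlapped 3 (0.281%). Irf8, Pax5 and Oct2, each over at most 0.009% of the genome, overlapped 1 site each.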
